A study of Mus musculus with 6 samples.

Results

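Enzymes that move nitrogen between glutamate and other metabolites were compared between mouse TH17-skewed cells cultured without glutamine and cells cultured with it. The genes were named as a family of 8: the glutaminase Gls2, the glutamate dehydrogenase Glud1, the aspartate aminotransferases Got1 and Got2, the alanine aminotransferases Gpt and Gpt2, the GABA aminotransferase Abat and the glutamine-dependent NAD synthetase Nadsyn1. A member was measured through an array row that names no other gene, and 6 of the 8 had such a row, 1 each, among 30701 genes of the arrays. The row of Glud1 also names another gene symbol, Gm3219, so Glud1 is not analysed here, and neither is Gls2.

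The 3 tested cultures were naive CD4 T cells kept in TH17-skewing medium lacking glutamine, and the 3 control cultures had the same medium with glutamine. In both groups the cells were sorted as naive CD4 cells, stimulated through CD3 and CD28, and cultured for 3 days with TGF-beta, IL-6 and IL-23, while antibodies neutralised IL-12, IL-4 and IFN-gamma. The medium of both groups held 10% serum. Mouse strain, sex, age and allele are not given in the labels. The sample titles call the arrays biological replicates, but no label ties a replicate to its own mouse. The p-values therefore reflect only how much these arrays differ, which may in part be technical.

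Glutamine is deamidated to glutamate by glutaminases. Glutamate becomes 2-oxoglutarate, a TCA cycle intermediate, either by glutamate dehydrogenase or by aminotransferases. An aminotransferase passes the amino group of glutamate to a keto acid: the GOT enzymes make aspartate from oxaloacetate and the GPT enzymes make alanine from pyruvate. Got1 and Gpt encode the cytosolic enzymes, and Got2 and Gpt2 the mitochondrial ones. Both GOT enzymes are also steps of the malate-aspartate shuttle, which carries the electrons of cytosolic NADH into mitochondria. Proliferating T cells use glutamine as a source of carbon and nitrogen.

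The arrays of a group resembled each other more than arrays of different groups, with Pearson's r over genes from 0.996 to 0.998 within groups and from 0.988 to 0.99 between them. The array medians over all rows lay between 4.33 and 4.38 log2 without glutamine and between 4.18 and 4.21 log2 with it. CD4 T cell marker genes were bright in every array (9 of the 10 listed were measured, at 8.61 to 17.42 log2). They summed to 126.8 to 128.0 log2 without glutamine and 125.0 to 126.5 log2 with it, and Cd3d and Cd5 were called higher. The 5 measured B cell markers lay between 3.24 and 4.81 log2. Summed over its 4 measured markers the NK cell list stood at 16.2 to 16.5 log2 without glutamine and at 16.5 to 16.9 log2 with it, with 1 marker called higher and 1 lower. The 7 myeloid markers summed to 32.9 to 33.6 log2 without glutamine and 33.0 to 33.8 log2 with it, Cd68 being called higher and Lyz2 lower, while the defining markers Csf1r, Itgam and Adgre1 did not pass. The CD8 markers Cd8a and Cd8b1 summed to 11.0 to 11.3 log2 without glutamine and 11.7 to 12.0 log2 with it, and Cd8b1 was called lower. The part of these other cells in the results was not tested. Il17a, the cytokine gene that defines TH17 cells, averaged 5.94 ± 0.47 log2 without glutamine and 12.75 ± 0.41 log2 with it (SD, n = 3 each).

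Mitochondrial Got2 and Gpt2 were lower in the cultures without glutamine, whereas cytosolic Got1 stayed at nearly the same mean. None of the 6 measured members was called higher, 2 were called lower and 4 did not pass the threshold of adjusted p under 0.05 in limma. Of all 30701 genes, 13.0% were called lower and 9.3% higher, or 22.3% in either direction. The groups did not overlap for the same 2 members, against 43.8% of all genes. The median difference, without minus with glutamine, was -0.07 log2 over the 6 members and 0.06 log2 over all genes. In cultures measured in bulk, fewer cells of a type and less RNA per cell cannot be told apart.

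Got2 encodes the mitochondrial aspartate aminotransferase, the main route by which mitochondria make aspartate. Its levels were 14.83, 14.76 and 14.62 log2 in the arrays without glutamine, against 15.42, 15.44 and 15.39 log2 in the arrays with it. Every array without glutamine lay below every array with it, and the gap between the groups was wider than the spread within either. The means were 14.74 ± 0.11 and 15.42 ± 0.02 log2 without and with glutamine (SD, n = 3 each), and the difference of -0.68 log2 (SE 0.08) had adjusted p = 0.00193 in limma. The difference was -0.95 log2 after quantile normalization and -0.84 log2 after each array was centred on its median, with adjusted p = 0.000332 and adjusted p = 0.000885 in limma. It passed the threshold with any 1 array left out, at adjusted p between 0.00584 and 0.0116 in limma.

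Got1 encodes the cytosolic aspartate aminotransferase, which runs the same reaction on the other side of the mitochondrial membrane. Its levels were 13.69, 13.6 and 13.51 log2 without glutamine, against 13.53, 13.79 and 13.5 log2 with it. The groups overlapped, with the array of highest level and the array of lowest level both among the cultures with glutamine. The difference was -0.01 log2 with a 95% interval from -0.25 to 0.23 log2 (adjusted p = 0.94, limma), and the interval does not reach the difference of Got2. The Got2 value minus the Got1 value of the same array was 1.15, 1.16 and 1.11 log2 without glutamine and 1.89, 1.64 and 1.89 log2 with it. Its size depends on the probes of both rows and ranks neither gene, so only its change between groups is read. The gaps did not overlap between the groups and differed by -0.67 log2, which restates the differences already given for both genes. An exact two-sided permutation test over the arrays gave p = 0.1, the smallest value that 3 against 3 arrays allow.

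Gpt2, the mitochondrial alanine aminotransferase gene, had 8.82, 8.49 and 8.42 log2 without glutamine, against 9.08, 9.13 and 8.89 log2 with it. The groups did not overlap, but the highest array without glutamine came within the spread of its own group of the lowest array with it. The means were 8.57 ± 0.21 and 9.04 ± 0.13 log2 without and with glutamine (SD, n = 3 each), a difference of -0.46 log2 (SE 0.13) with adjusted p = 0.0422 in limma. The call did not hold when replicate 2 or 3 without glutamine was left out (adjusted p = 0.132 and 0.116, limma) or when replicate 1 or 2 with glutamine was left out (adjusted p = 0.109 and 0.127, limma). The count of members called lower was then 1. The difference was -0.51 log2 after quantile normalization and -0.62 log2 after centring.

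The promoter windows of Got1, Got2 and Gpt2 are shown because the genes of one reaction pair, Got1 and Got2, differed in their change while Got2 and Gpt2 were both lower. The sequences are the 250 bases upstream of the RefSeq gene start, 5′ to 3′ along the gene, in build GRCm38.p6. They lie at chr19:43524606-43524855 on the minus strand, chr8:95888402-95888651 on the minus strand and chr8:85492326-85492575 on the plus strand. Capitals mark a match to TGATGNAA on either strand, the core of the C/EBP-ATF response element, a motif bound by the amino acid stress factor ATF4.
Got1: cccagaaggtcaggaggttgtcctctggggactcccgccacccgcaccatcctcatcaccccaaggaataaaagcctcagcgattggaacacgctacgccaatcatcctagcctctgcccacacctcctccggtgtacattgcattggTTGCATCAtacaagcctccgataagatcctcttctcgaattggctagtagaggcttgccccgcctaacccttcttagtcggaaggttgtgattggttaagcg
Got2: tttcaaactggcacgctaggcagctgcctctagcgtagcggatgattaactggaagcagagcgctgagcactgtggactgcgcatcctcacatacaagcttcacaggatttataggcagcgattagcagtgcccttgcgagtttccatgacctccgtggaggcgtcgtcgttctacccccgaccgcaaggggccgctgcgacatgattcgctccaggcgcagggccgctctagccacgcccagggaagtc
Gpt2: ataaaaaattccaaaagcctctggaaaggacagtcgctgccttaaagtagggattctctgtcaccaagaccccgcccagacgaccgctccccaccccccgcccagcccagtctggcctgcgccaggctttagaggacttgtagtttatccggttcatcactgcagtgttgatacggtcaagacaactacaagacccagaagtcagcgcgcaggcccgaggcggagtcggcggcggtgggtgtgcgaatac
The Got1 window held 1 match, read as TTGCATCA on the gene's strand, from position -102 to -95 relative to the gene start. The windows of Got2, Gpt2 and Nadsyn1 held 0 matches. Of 32851 promoter windows of the same length, 3.45% held a match. The Got1 window also held 5 copies of the CCAAT box (CCAAT on either strand), none overlapping the marked match, and the windows of Got2, Gpt2 and Nadsyn1 held 0, where 33.8% of all windows held at least 1. Both motifs were chosen with the differences known. A match describes letters in the window and does not show that a factor binds there.

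**Figure D1:**
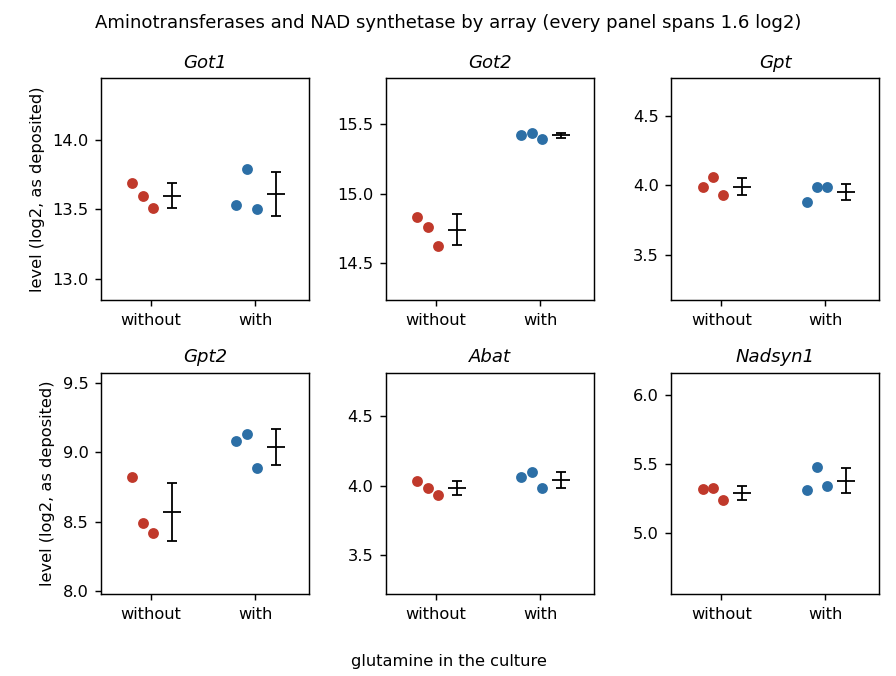
Level of each measured member (log2, as deposited) in the 3 arrays without glutamine (red, left) and the 3 arrays with it (blue, right), with the mean and SD of each group in black. Every panel spans 1.6 log2. The groups are apart for Got2 (14.62 to 14.83 without and 15.39 to 15.44 with glutamine) and, more narrowly, for Gpt2, and overlap for Got1, Gpt, Abat and Nadsyn1.

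None of the other 3 members passed the test. Gpt, the cytosolic alanine aminotransferase gene, had 3.99, 4.06 and 3.93 log2 without glutamine, against 3.88, 3.99 and 3.99 log2 with it. Abat, whose enzyme degrades the transmitter GABA and yields glutamate, had 4.03, 3.98 and 3.93 log2 without glutamine, against 4.06, 4.1 and 3.98 log2 with it. Both rows lay under the median of all rows in every array. The difference was 0.04 log2 for Gpt (95% interval -0.13 to 0.21, adjusted p = 0.699, limma) and -0.06 log2 for Abat (95% interval -0.23 to 0.1, adjusted p = 0.53, limma). The difference of Gpt took the other sign after quantile normalization (-0.09 log2) and after centring (-0.11 log2). Abat differed by -0.2 and -0.22 log2 in these scalings, short of the threshold (adjusted p = 0.114 and 0.0826, limma).

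Nadsyn1 encodes the enzyme that uses the amide nitrogen of glutamine, or ammonia, for the last step of NAD synthesis. Its levels were 5.32, 5.33 and 5.24 log2 without glutamine, against 5.31, 5.48 and 5.34 log2 with it. The groups overlapped, and the difference was -0.08 log2 (95% interval -0.26 to 0.1, adjusted p = 0.453, limma). After quantile normalization the difference was -0.26 log2 (adjusted p = 0.0571, limma) and after centring -0.24 log2 (adjusted p = 0.0743, limma). The median difference over all genes, 0.06 log2 as deposited, was -0.05 log2 after quantile normalization and -0.1 log2 after centring. The share of called genes that were higher without glutamine was 41.7% on the deposited scale, 21.7% with quantile normalization and 16.6% with centring.

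**Figure D2:**
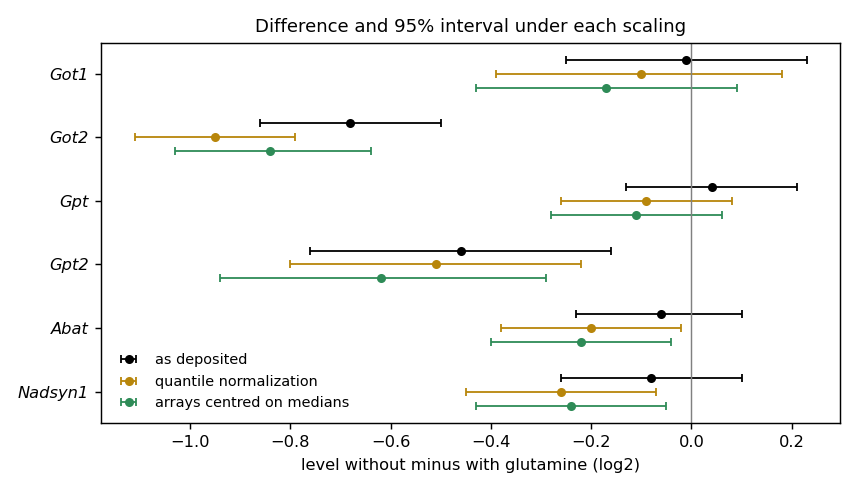
Difference in level of each member, without minus with glutamine (log2), with its 95% interval, for the deposited values (black), after quantile normalization (ochre) and after subtracting each array's median (green). The intervals of Got2 and Gpt2 lie below 0 under each scaling, whereas those of Got1 and Gpt include 0 under each. The intervals of Abat and Nadsyn1 include 0 for the deposited values and lie below it after quantile normalization and centring. Neither Abat nor Nadsyn1 passed the threshold on adjusted p under any scaling.

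The genes whose profiles over the 6 arrays lay closest to those of the 2 called members were found by the root mean square distance of the log2 values, each gene centred on its own mean. For Got2 they were the mitochondrial ribosomal protein gene Mrpl39 (distance 0.0249 log2) and Fdft1, the squalene synthase gene (0.0255 log2). For Gpt2 they were Cmtm4 (0.0295 log2) and the splicing factor gene Sf3a3 (0.0298 log2). The search covered 20163 genes, and the distances describe likeness in these arrays only.

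Other genes of glutamine, glutamate and NAD metabolism were taken from 8 lists holding 78 genes besides the members, of which 73 were measured. Of these 4 were called higher, 20 lower and 49 did not pass, with a median difference of -0.08 log2. After quantile normalization 1 was called higher and 27 lower, and after centring 1 and 29. Of all 30701 genes, dim ones included, 9.3% were called higher and 13.0% lower. These shares are too low a background for a list of mostly bright genes. Brighter genes were called more often. When only genes above the median gene were tested, 2425 were called higher and 4089 lower. The median gene splits all genes evenly, so both shares were larger among these brighter genes. Of the 48 list genes among them, 3 were higher and 22 lower.

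The malate-aspartate shuttle was the list in which the most non-members were called as a share. All 5 of them were lower without glutamine, with a median difference of -0.77 log2, so that among the 7 shuttle genes only Got1 did not pass. All 5 also lay above the median gene, where calls were more frequent than over all genes. Slc25a13, which encodes the mitochondrial aspartate-glutamate carrier citrin, had 7.39, 7.11 and 6.73 log2 without glutamine, against 9.72, 9.63 and 9.57 log2 with it. The groups lay far apart, and the difference was -2.56 log2 (SE 0.16, adjusted p = 0.000283, limma). Slc25a12, which encodes the related carrier aralar, averaged 12.27 ± 0.06 log2 without glutamine and 12.77 ± 0.11 log2 with it (SD, n = 3 each; adjusted p = 0.00735, limma). The 2-oxoglutarate and malate exchanger gene Slc25a11 differed by -0.84 log2 and the cytosolic malate dehydrogenase gene Mdh1 by -0.77 log2, with adjusted p = 0.00621 and 0.00376 in limma. Mdh2, the mitochondrial malate dehydrogenase gene, averaged 14.32 ± 0.14 log2 without glutamine and 14.84 ± 0.12 log2 with it (SD, n = 3 each; adjusted p = 0.0134, limma). The call of Mdh2 did not hold when replicate 2 of the cultures with glutamine was left out (adjusted p = 0.0512, limma). It was also lost with the unmoderated statistic (adjusted p = 0.0559). Slc25a12 and Mdh2 are named because they complete the list, after their values were seen.

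**Figure D3:**
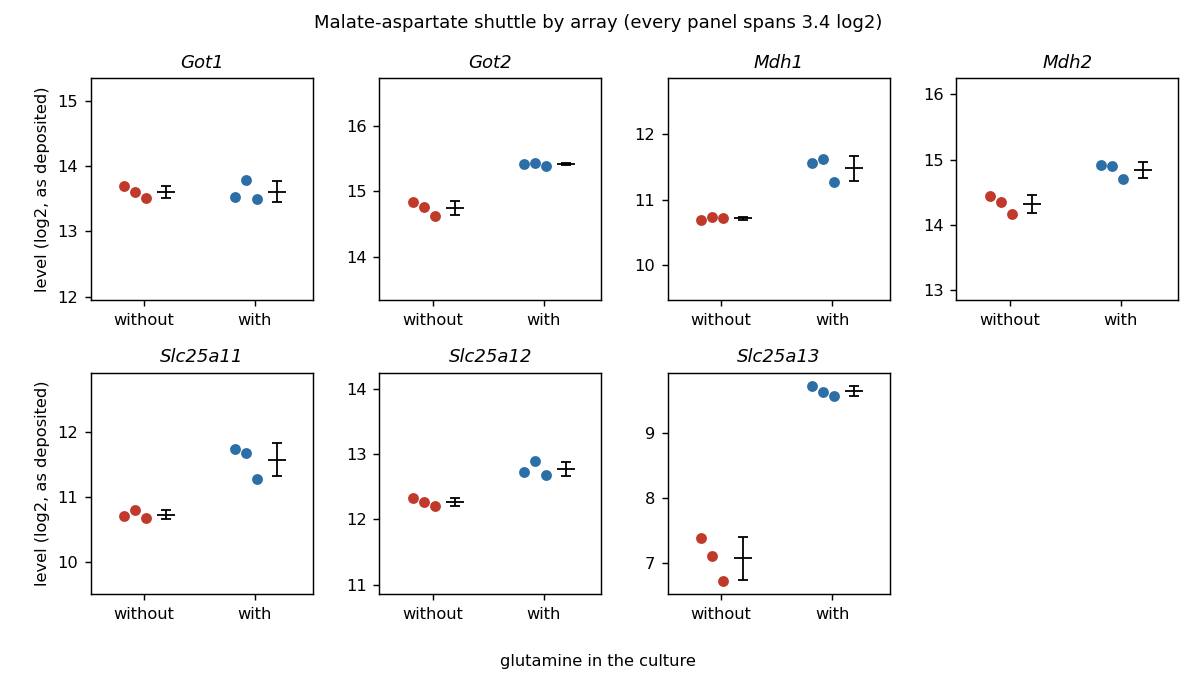
Level (log2, as deposited) of the 7 malate-aspartate shuttle genes in the 3 arrays without glutamine (red, left) and the 3 arrays with it (blue, right), with group mean and SD in black. Every panel spans 3.4 log2. The groups are apart for every gene except Got1, and the gap is widest for Slc25a13.

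In the list of glutamine amidotransferases and other synthetases that use glutamine, which includes the glutaminyl-tRNA synthetase gene Qars, 4 of 9 measured genes were lower and 5 did not pass. Under either other scaling 6 were lower. The 4 were Gfpt2 of the hexosamine pathway (-1.63 log2), the CTP synthase gene Ctps2 (-0.83 log2), Ppat, the first enzyme of purine synthesis (-0.81 log2), and Gmps, which makes GMP (-0.74 log2, named after its value was seen). Their adjusted p-values in limma were between 8.83e-05 and 0.0041. Asns, which makes asparagine from aspartate and glutamine and is a target of ATF4, had 14.06, 13.82 and 13.57 log2 without glutamine, against 14.37, 14.41 and 14.13 log2 with it. The groups of Asns did not overlap, yet its difference of -0.49 log2 narrowly missed the threshold (adjusted p = 0.0508, limma). Asns passed as lower after quantile normalization (-0.65 log2, adjusted p = 0.0129, limma) and after centring (-0.65 log2, adjusted p = 0.0217, limma). With single arrays left out its adjusted p ran from 0.0322 to 0.147 (limma), on both sides of the threshold. Asns did not pass with the unmoderated statistic (adjusted p = 0.137). Its promoter window held 1 match to the motif searched above, TGATGAAA from position -23 to -16.

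Among 13 other genes of the aminotransferase list, which includes the related phospho-lyases Etnppl and Phykpl, 1 was called higher, 2 lower and 10 did not pass. Under either other scaling 0 were higher and 4 lower. Oat, the mitochondrial ornithine aminotransferase, had 9.69, 9.55 and 9.46 log2 without glutamine, against 11.05, 10.97 and 10.86 log2 with it. Its difference of -1.39 log2 (SE 0.09) had adjusted p = 0.000287 in limma, and its groups did not overlap. Of the kynurenine aminotransferase genes in the list, Kyat3 differed by -0.73 log2 (adjusted p = 0.00339, limma) and Kyat1 by 0.51 log2 (adjusted p = 0.019, limma). Aadat differed by -0.05 log2 and did not pass (adjusted p = 0.713, limma). Kyat1 also missed the threshold with the unmoderated statistic (adjusted p = 0.0708). The call of Kyat1 did not hold after quantile normalization (adjusted p = 0.107, limma) or centring (adjusted p = 0.0737, limma), nor without replicate 1 or 2 of the cultures lacking glutamine (adjusted p = 0.054 and 0.0566, limma) or replicate 2 of those with it (adjusted p = 0.0528, limma).

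Of 3 GABA shunt genes besides Abat, 1 was lower: Gad2, a glutamate decarboxylase, averaged 4.95 ± 0.07 log2 without glutamine and 6.02 ± 0.31 log2 with it (SD, n = 3 each; adjusted p = 0.00474, limma). Of 18 carriers of glutamine, glutamate and exchanged amino acids, 2 were lower and 16 did not pass, while 3 were lower after quantile normalization and 4 after centring. The 2 were Slc7a11, the cystine-glutamate exchanger gene (-0.9 log2, adjusted p = 0.00223, limma), and Slc7a5, a chain of the large neutral amino acid transporter (-0.55 log2, adjusted p = 0.00608, limma). Slc1a5, a major glutamine importer of activated T cells, had 14.5, 14.18 and 14.08 log2 without glutamine, against 13.85, 13.88 and 14.09 log2 with it. Its groups overlapped and its difference of 0.31 log2 did not pass (adjusted p = 0.132, limma).

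In the list of glutamate conversion to proline and glutathione, 2 of 8 measured genes were called higher and 6 did not pass. After quantile normalization 0 were higher and 1 lower, and after centring 0 were higher and 2 lower. The 2 higher calls on the deposited scale were Prodh, whose enzyme degrades proline (0.27 log2, adjusted p = 0.0417, limma), and Prodh2, whose enzyme degrades hydroxyproline (0.3 log2, adjusted p = 0.0221, limma). Neither call held after quantile normalization (adjusted p = 0.53 for Prodh and 0.196 for Prodh2, limma) or after centring (0.322 and 0.177). Prodh did not pass with any 1 array left out (adjusted p between 0.0596 and 0.127, limma). Prodh2 lost its call without any single array lacking glutamine and without replicate 1 or 2 with it, the highest adjusted p being 0.0746 in limma.

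The NAD synthesis list around Nadsyn1 also takes in the NAD kinase genes Nadk and Nadk2, whose enzymes turn NAD into NADP. Several genes of the list were lower without glutamine. Of 17 measured, 1 was called higher, 6 lower and 10 did not pass. The median difference was 0.02 log2 and the mean -0.35 log2. After quantile normalization and after centring 7 were lower in each, with medians of -0.14 and -0.13 log2. Nampt, the rate-limiting enzyme of NAD salvage from nicotinamide, had 10.62, 10.41 and 10.2 log2 without glutamine, against 12.36, 12.52 and 11.91 log2 with it. Its groups lay well apart, with a difference of -1.86 log2 (SE 0.18, adjusted p = 0.00113, limma). The mitochondrial NAD kinase gene Nadk2 differed by -1.38 log2 and the nicotinamide riboside kinase gene Nmrk1 by -1.22 log2, with adjusted p = 0.000431 and 0.00177 in limma. The remaining calls, named after their values were seen, were Kynu (-1.16 log2) and Kmo (-1.15 log2) of the kynurenine route and the cytosolic NAD kinase gene Nadk (-0.36 log2) as lower, and Qprt (0.41 log2), which feeds quinolinate into NAD synthesis, as higher. The call of Nadk did not hold without replicate 2 or 3 of the cultures lacking glutamine (adjusted p = 0.0598 for each, limma).

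**Figure D4:**
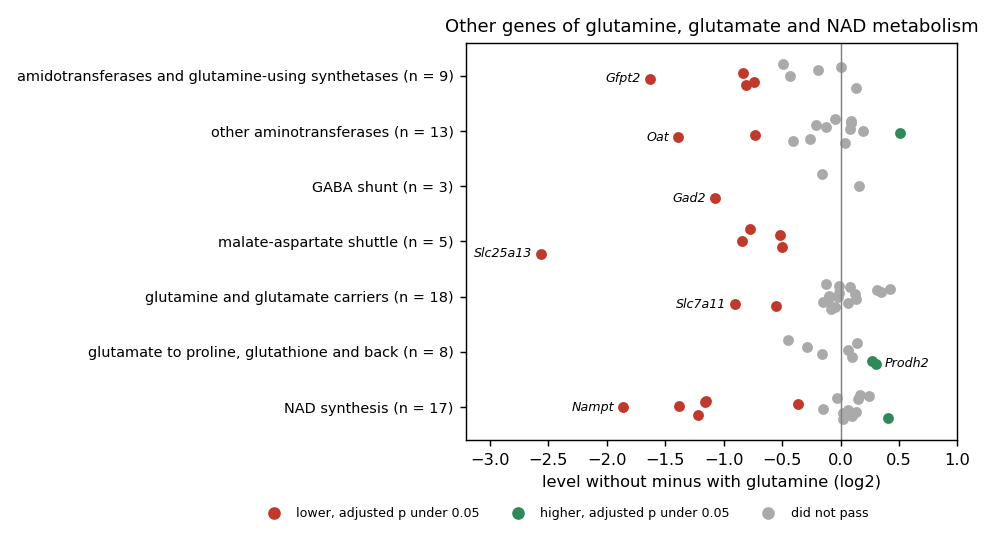
Difference in level, without minus with glutamine (log2), of each measured gene other than the members in 7 lists, 1 point per gene, with red for lower and green for higher at adjusted p under 0.05 (limma) and grey for genes that did not pass. The gene with the largest called difference in each list is named. All 5 shuttle genes are red, with Slc25a13 at -2.56 log2, while 16 of 18 carriers are grey.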

How the data were processed

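RNA of 6 mouse T cell cultures, 3 without and 3 with glutamine, was hybridised to Affymetrix arrays. Each array row has a deposited log2 level, which the authors computed by RMA with Transcriptome Analysis Console 4.0 according to the submitters' processing notes. This method subtracts background, normalizes between arrays and combines the probes of a row. The highest value of an array was 19.51 to 19.67 log2, and the array medians differed between the groups. Whether a further step followed RMA is not known. The settings, array annotation and genome build were not given in the sources used here, so no coordinates of array rows are printed (promoter positions are RefSeq's), and differences are log2 on the deposited scale and not folds.

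Rows were named by the platform annotation, and outdated symbols were replaced from RefSeq's GRCm38.p6 gene table. Of 65956 rows, 31258 named 1 gene, 1492 several and 33206 were unnamed here. Where a gene had several rows, the brightest over the 6 arrays was used, giving 30701 genes; dim genes were kept. There were 0 columns of other samples.

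Differences were tested gene by gene in limma 3.58.1 (lmFit, eBayes, two-sided) under R 4.3.3, with Benjamini-Hochberg adjustment over all genes and a threshold of 0.05; intervals are at 95%. The members, lists and tests were chosen with earlier results of these data known. The rule for named genes took all members, up to 3 called genes per list (or the brightest where none passed), 5 genes regardless of value (of which Asns, Slc1a5 and Il17a had a row naming them alone), and 2 genes of most similar pattern per called member. The alternatives were other scalings, filters, row rules, moderation, weights, thresholds, the replicate block and leaving out each array. Promoter sequences are RefSeq's. Figures were drawn with matplotlib 3.10.9.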

Additional observations from a re-analysis of the deposited data

How the results depend on the processing

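Got2 was called lower under every alternative run except the minimum of 1 log2, with differences between -0.95 and -0.62 log2. Gpt2 kept its direction, but its call (-0.46 log2) ended when all rows were tested (adjusted p = 0.0568, limma), with the unmoderated statistic (adjusted p = 0.118) and at a threshold of 0.01; leaving out arrays gave -0.58 to -0.38 log2. Members called lower were then 1, and 0 with a minimum of 1 log2, and numbered 1 to 2 with an array left out. The uncalled differences changed sign for Got1 with an array left out (-0.07 to 0.08 log2, 0.03 without replicate 3 of the cultures lacking glutamine and 0.08 without replicate 2 of those with it) and for Gpt after quantile normalization (-0.09) and centring (-0.11). The cause was not tested.

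Of all genes, 2856 were called higher and 3989 lower. Higher calls were 1455 after quantile normalization, 1216 after centring, 1415 unmoderated, 801 at the threshold of 0.01, 381 with the 1 log2 minimum, and 1395 to 2490 with an array left out. When all 65956 rows were tested in place of the 30701 genes, 6773 rows were called higher and 4178 lower. Lower calls were 6128 after centring, 2418 unmoderated, 2143 at 0.01, 872 with the 1 log2 minimum, and 2666 to 4012 with an array left out. Of the 73 other list genes, the 4 higher calls became 1 after either scaling and at 0.01, 0 with the 1 log2 minimum, and 1 to 3 with an array left out; the 20 lower calls became 9 with the 1 log2 minimum and 19 to 24 with an array left out. The labels do not say that a replicate number marks a shared mouse or day, so the numbers were not taken as pairs. Deviations from the group means correlated at r = 0.066, -0.234 and 0.276 between arrays of the same number. Between arrays of unlike numbers r ran from -0.334 to 0.3. With means of only 3 arrays these values cannot decide whether the arrays are paired. With the replicate block 6293 genes were called against 6845, and 2 members lower as before. There are 3 arrays per group, which limits the precision of every value.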
